A study of Rattus norvegicus with 52 samples.

Results

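Pigr, Gp2, Ltf, Lcn2, Lpo, Ccl28, S100a8 and S100a9 encode proteins with which secretory epithelia meet microbes. They were followed as 8 of the 17356 genes with a row in every count table, by symbol, over 48 RNA-seq libraries of sorted rat mammary cells. The set was chosen by symbol and selected on measured values of these libraries, since Pigr was higher and Gp2 lower in luminal progenitors of 9-week-old Cdkn1b knockout rats, so that contrast is described without a test. Cdkn1b encodes p27, an inhibitor of cyclin-dependent kinases.

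The first experiment held 16 libraries from 9-week-old female ACI rats, wild type (Cdkn1b+/+) or knockout (Cdkn1b-/-). In each genotype 2 libraries came from each of 4 populations, namely basal cells, Cd49b- PNA- luminal cells labelled mature luminal, and luminal progenitors (LP) sorted as PNA+ or Cd49b+. Basal cells were sorted as Cd24+ Cd29HIGH and luminal cells as Cd24+ Cd29LOW. Rats of 4 weeks gave 11 libraries and rats of 6 weeks gave 9, sorted only into basal and luminal cells of both genotypes. A last experiment of 12 basal and luminal libraries compared control and estradiol-treated (E2, from implants) females of the ACI strain with those of the BN strain. By the authors' methods the implants were empty or held E2 and were placed in 9-week-old rats. Knockout rats lacked p27 in the whole body through the em1 or em4 deletion allele, made in Sprague-Dawley zygotes and bred to ACI. The lines of both alleles contributed rats to either genotype group, as littermates of heterozygous crosses. BN libraries were pools of animals, with 1 library for each treatment and cell type. Nothing in the labels says that the 9-week replicate numbers stand for separate animals, so the p-values there measure the spread between libraries, which may be partly technical.

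Pigr, the polymeric immunoglobulin receptor, carries dimeric IgA and IgM across epithelial cells into secretions such as milk. Gp2 is a membrane glycoprotein that binds bacterial fimbriae, known from pancreas and from M cells of the gut. Lactoperoxidase (Lpo), lactotransferrin (Ltf, which binds iron), lipocalin 2 (Lcn2, which binds bacterial siderophores) and the S100a8-S100a9 pair (calprotectin, abundant in neutrophils) are antimicrobial proteins, and Ccl28 is the chemokine that draws IgA-secreting cells to mucosae and to the lactating gland. In the mammary gland several of them are made by the secretory luminal cells that also make milk proteins.

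Between 7985619 and 33859550 counts per library fell on genes, and levels are given as CPM, the counts of a gene per 1e+06 counts on genes in that library. Cdkn1b itself was between 6.00 and 18.0 CPM in the 8 wild-type and between 1.59 and 4.24 CPM in the 8 knockout libraries of 9 weeks. At 4 weeks the genotypes did not overlap either (15.6 to 43.9 against 4.30 to 15.2 CPM), but at 6 weeks the libraries labelled knockout (11.1 to 30.2 CPM) lay within the range of those labelled wild type (3.13 to 46.3 CPM). The basal marker list was 19442 to 30461 CPM in the basal libraries of 9 weeks and at most 3018 CPM in the luminal ones. The wild-type Cd49b- PNA- cells had less Pgr (13.7 and 17.7 CPM) than the 4 wild-type LP libraries (47.2 to 76.2 CPM), and more Elf5 (76.1 and 109 against 44.2 to 63.4 CPM). Pgr, the progesterone receptor, is a marker of mature hormone-sensing cells and Elf5 of progenitors, so these levels go against the label mature luminal, and the population is called by its gate here. The label LP is in doubt as well, since the summed hormone-sensing list was higher (497 to 874 against 205 and 230 CPM) in wild-type LP. The progenitor list was lower there (18777 to 26991 against 33382 and 45476 CPM), led by Csn3 (12079 to 18709 against 22386 and 29583 CPM) and Mfge8 (5449 to 7868 against 9413 and 15137 CPM). Other genes of it differed less clearly, with Aldh1a3 and Tspan8 fitted higher in LP (log2 fold change 0.97 and 1.41) and Kit lower (-0.26), none called by edgeR. LP stands here only for the PNA+ and Cd49b+ gates so labelled. Libraries that stood apart were 1 wild-type basal library of 6 weeks with neutrophil and other leukocyte markers, 1 luminal library labelled knockout of 6 weeks with macrophage markers at 337 CPM, and the basal library of E2-treated ACI animal 1, in which 7716 genes had a count, the fewest of all, and in which Lcn2 was at 0 counts.

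The first 250 bases upstream of the annotated start are printed for Pigr, Lpo and Gp2, the members whose levels separated the genotypes in all 9-week populations. They come from RefSeq on build GRCr8, which is not the build of the counts, and run 5′ to 3′ on the gene's strand with the start after the last base. Capitals mark TATAAA in Lpo and Gp2 and CACGTG in Pigr.
Pigr, 13:44850932-44851181, plus strand: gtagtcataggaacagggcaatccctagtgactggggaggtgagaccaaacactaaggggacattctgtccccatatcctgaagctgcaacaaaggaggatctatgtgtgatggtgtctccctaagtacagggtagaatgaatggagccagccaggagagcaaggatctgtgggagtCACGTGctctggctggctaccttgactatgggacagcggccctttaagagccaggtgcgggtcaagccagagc
Lpo, 10:73123457-73123706, minus strand: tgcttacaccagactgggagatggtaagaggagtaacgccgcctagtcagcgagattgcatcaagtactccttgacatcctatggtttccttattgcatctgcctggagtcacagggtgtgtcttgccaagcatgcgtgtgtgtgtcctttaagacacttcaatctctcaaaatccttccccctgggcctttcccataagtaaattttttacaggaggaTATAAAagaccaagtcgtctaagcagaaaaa
Gp2, 1:183243955-183244204, minus strand: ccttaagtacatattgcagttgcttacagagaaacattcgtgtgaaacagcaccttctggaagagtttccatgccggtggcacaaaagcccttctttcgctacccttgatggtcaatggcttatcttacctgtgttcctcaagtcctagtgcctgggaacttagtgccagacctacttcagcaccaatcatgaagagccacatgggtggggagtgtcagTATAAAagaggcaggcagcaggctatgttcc

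The windows of 7 of the 8 members were in the table (S100a8 was not) and were searched on both strands for 5 short motifs, whose letters do not overlap in these windows. TATAAA, the TATA box, began 31 bases before the start in both Lpo and Gp2 and 42 bases before it in S100a9, and is found in 12.9% of all 33469 windows. CACGTG, an E-box, was in the windows of Pigr and Ccl28 and in 5.59% of all. TTCNNNGAA (a STAT-type site, 7.67% of windows), GAAANNGAA (an interferon-regulatory-factor-type site, 8.12%) and GGGNNTTCC (an NF-kB-type site, 5.09%) were in none of the 7. Lpo and Gp2 share the letters and place of 1 motif, and their levels went in opposite directions with the genotype. A match is a description of these letters and not of a bound site, and TATAAA was added to the search after the sequences had been read.

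In the gates labelled luminal progenitor, the contrast that chose the set, Pigr separated the genotypes without overlap. The knockout LP libraries held 102 and 104 (Cd49b+) and 114 and 215 CPM (PNA+), against 10.5 and 8.79 (Cd49b+) and 9.11 and 8.26 CPM (PNA+) in wild type. The 4 wild-type values lay close together, whereas 1 PNA+ knockout library stood far above the rest. The fitted log2 fold change was 4.20 (SE 0.32), and it was 3.65 in the Cd49b+ and 4.62 in the PNA+ libraries taken apart. Bulk RNA cannot tell a higher level per cell from more cells of a high-expressing type, here or in any later comparison.

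Lpo, the peroxidase, went the same way. Its knockout LP libraries held 20.9, 27.9, 31.1 and 51.4 CPM and its wild-type LP libraries 1.17, 1.80, 6.63 and 8.54 CPM, again with no overlap, and its log2 fold change was 3.19 (SE 0.60). In wild type the 2 libraries with replicate number 1 had the higher values in both gates, so the number mattered for Lpo where it hardly did for Pigr.

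Gp2 had the opposite pattern. It was at 4.01, 4.63, 4.93 and 7.97 CPM in knockout LP and at 102, 103, 205 and 257 CPM in wild-type LP, without overlap and with the wild-type libraries of replicate number 2 above those of number 1. The log2 fold change was -4.63 (SE 0.50). Across all 436 genes called in this contrast, 3.4% of those tested, 271 were higher and 165 lower, and nothing about the members is read from that share. That fit takes both gates of a replicate number as separate libraries, and 5 genes, all higher, were called when the PNA+ and Cd49b+ libraries of a number were summed.

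**Figure D1:**
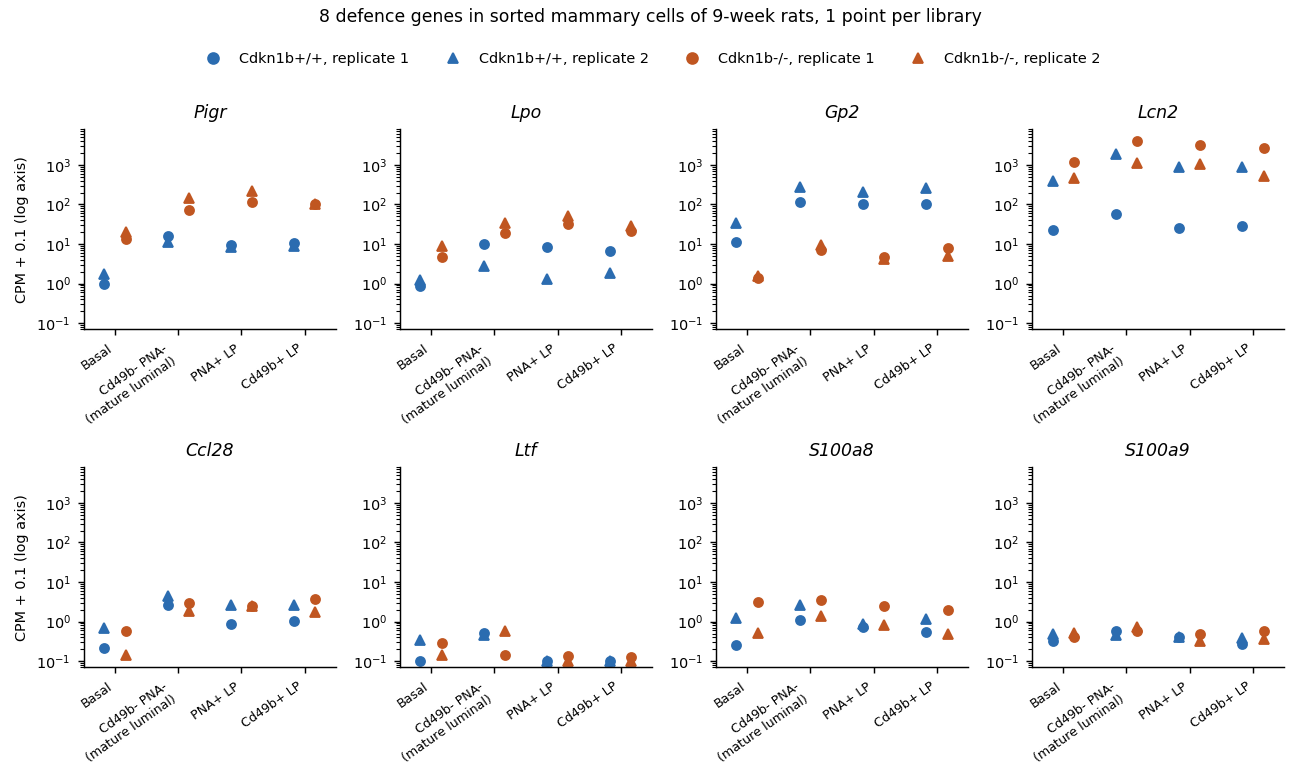
CPM plus 0.1 (log axis) of each of the 8 genes in the 16 libraries of 9 weeks, by sorted population (x axis), genotype (blue, Cdkn1b+/+, and orange, Cdkn1b-/-) and replicate number (circles and triangles). Pigr and Lpo lie higher and Gp2 lower in the knockout in every population, Lcn2 splits by replicate number in the wild type, and Ltf stays under 0.6 CPM.

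The other 5 members overlapped between the genotypes in LP. The log2 fold change of Lcn2 was 2.39 with an SE of 1.32, that of S100a8 1.26 (SE 0.79), that of Ccl28 0.89 (SE 0.60) and that of S100a9 0.62 (SE 0.43). Ltf, with 1 count in each of 2 knockout libraries and 0 in all others, was under the floor of 3 counts. Of these 5, Lcn2 alone exceeded 4 CPM in LP.

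Lcn2 differed widely between the replicate numbers within each genotype. The wild-type libraries with number 1 were at 22.8 (basal), 57.2 (Cd49b- PNA-), 25.4 (PNA+) and 27.9 CPM (Cd49b+), and those with number 2 at 402, 1839, 902 and 896 CPM. In the knockout the order was turned, with 1161, 4031, 3122 and 2704 CPM under number 1 and 465, 1148, 1068 and 533 CPM under number 2. Within number 1 the knockout was thus 51.0 to 123 times the wild type, and within number 2 it was 0.59 to 1.18 times the wild type. Nothing in the labels ties a number of one genotype to that of the other, and with the numbers crossed the knockout value was the higher in every population. S100a8 followed the same order at far lower levels, with knockout libraries 3.51 to 20.0 times the wild type under number 1 and 0.35 to 0.99 times under number 2.

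Cd49b- PNA- luminal cells and basal cells did not enter the contrast that chose the members, and the genotype comparison was tested there. These libraries are not independent of the LP libraries, since within a genotype those with the same number deviated together across populations (correlation 0.39 to 0.83), so the calls add no separate evidence on the direction of Pigr and Gp2. In Cd49b- PNA- cells 2 of the 8 members changed, Pigr upward and Gp2 downward, where 0.133% of the 12809 genes tested were called (17 genes). Pigr held 72.8 and 144 CPM in knockout and 15.9 and 11.2 CPM in wild type, a log2 fold change of 3.13 (SE 0.44, edgeR adjusted p = 0.0146). Gp2 held 7.17 and 9.60 CPM in knockout against 115 and 280 CPM in wild type, a log2 fold change of -4.44 (SE 0.70, edgeR adjusted p = 0.0257). With 2 libraries a group, both calls used the spread of all 16 libraries, and neither was made when the 4 compared libraries were fitted alone (edgeR adjusted p = 0.641 for each) or without any 1 of 3 (Pigr) or 5 (Gp2) single libraries.

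Lpo was not called in Cd49b- PNA- cells, although its groups did not overlap. It was at 18.8 and 34.1 CPM in knockout and 9.75 and 2.76 CPM in wild type, a log2 fold change of 2.26 (SE 0.82, edgeR adjusted p = 0.494). S100a9 was also without overlap at levels under 1 CPM (0.48 and 0.63 against 0.46 and 0.36 CPM), with a log2 fold change of 0.60 and an SE of 0.59. Lcn2, Ltf, Ccl28 and S100a8 overlapped.

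In basal cells 1 member was called, beside 0.0546% of all genes tested (7 genes). Pigr rose from 0.87 and 1.67 CPM in wild type to 13.1 and 19.9 CPM in knockout, a log2 fold change of 3.93 (SE 0.47, edgeR adjusted p = 0.00631), and lost the call with the 4 compared libraries alone (edgeR adjusted p = 0.0807), without knockout replicate 2 (0.0613) or wild-type replicate 1 (0.203). Gp2 was at 1.28 and 1.47 CPM in knockout and 11.3 and 34.8 CPM in wild type, a log2 fold change of -3.84 (SE 0.70, edgeR adjusted p = 0.101), which DESeq2 called (adjusted p = 8.13e-06). Lpo was at 4.71 and 8.92 CPM in knockout and 0.80 and 1.17 CPM in wild type, with a log2 fold change of 3.02 (SE 0.88, edgeR adjusted p = 0.347), which DESeq2 also called (adjusted p = 0.0195). All 3 stood apart in the direction they had in luminal cells. Lcn2 also stood apart in basal cells (465 and 1161 against 22.8 and 402 CPM), with an SE of 1.85 on a log2 fold change of 2.14.

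Basal libraries also held luminal transcripts. The summed luminal marker list of the basal libraries was 24.3% of the luminal mean in wild type and 30.8% in knockout, and the milk protein list 12% and 20.5%. Beside these, Pigr in basal cells was 12% of its luminal mean in wild type and 13.2% in knockout, Lpo 19.2% and 22.2%, and Gp2 13% and 21.6%. The milk list itself made up 2.10% to 8.55% of the counts of wild-type luminal libraries of 9 weeks and 10.7% to 19.9% in knockout, so it moved with Pigr and Lpo there, and its part in those results was not tested. At 6 weeks it made up 0.21% to 0.46% in luminal libraries labelled wild type and 1.08% to 3.42% in those labelled knockout, with 2 libraries a group. Pigr there had a log2 fold change of -3.51 with a 95% interval from -9.95 to 2.94. Lpo did not pass the filter on low counts there, and the part of the milk list was not tested. The neutrophil markers stayed between 0.91 and 5.80 CPM in sum in all 16 libraries.

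The members were compared between the lineages in wild-type rats. At 9 weeks 4 of the 8 were higher in Cd49b- PNA- luminal than in basal cells, where 20.9% of genes were called in either direction. Pigr had a log2 fold change of 3.57 (SE 0.47, edgeR adjusted p = 0.000294), Ccl28 of 3.44 (SE 0.96, edgeR adjusted p = 0.0214), Gp2 of 3.28 (SE 0.66, edgeR adjusted p = 0.00358) and Lpo of 2.79 (SE 0.88, edgeR adjusted p = 0.0371). Ccl28 itself was low, at 2.46 and 4.26 CPM in luminal and 0.11 and 0.59 CPM in basal cells. Pigr and Gp2 kept their calls with the 4 compared libraries alone, and Lpo and Ccl28 did not (edgeR adjusted p = 0.0608 and 0.0691). Lpo also lost its call without either wild-type basal library or Cd49b- PNA- replicate 1 (edgeR adjusted p = 0.0893 to 0.240), and Ccl28 without wild-type basal replicate 1 or Cd49b- PNA- replicate 2 (edgeR adjusted p = 0.104 and 0.153).

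Between wild-type LP and Cd49b- PNA- cells edgeR called 11% of genes and 1 of the 6 members tested, Ltf. Ltf was at 0 counts in all 4 LP libraries and at 9 counts in each of the Cd49b- PNA- libraries (0.42 and 0.36 CPM), at least 13.9-fold lower in LP when 3 counts over the LP group are taken as the floor. It passed the filter on low counts only through Cd49b- PNA- libraries, the group where it is high, so nothing is read from its call. With the replicate number as a block Lcn2, Ccl28 and S100a8 were called lower in LP as well (edgeR adjusted p = 0.00967, 0.0174 and 0.0396). Ltf was nearly absent throughout, with a count in 12 of 48 libraries, 3 or more counts in 6 and a highest level of 1.10 CPM. Pigr (8.26 to 10.5 against 11.2 and 15.9 CPM) and Gp2 (102 to 257 against 115 and 280 CPM) are given without a test here, because the wild-type LP libraries helped to choose them. Between the PNA+ and Cd49b+ gates none of the 7 members that could be tested was called. There edgeR called 0% of 11725 genes, with 358 at an unadjusted p under 0.05, and DESeq2 called 41.

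At 4 weeks the luminal libraries held much Gp2 and almost no Pigr. Gp2 was at 430, 732 and 538 CPM in the 3 wild-type luminal libraries and at 3.25, 6.10 and 21.2 CPM in the basal ones, a log2 fold change of 5.75 (SE 0.69, edgeR adjusted p = 6.98e-05). Ccl28 was at 15.6, 16.6 and 10.0 CPM in luminal cells and at most 0.92 CPM in basal cells (log2 fold change 5.35, SE 0.96). Pigr was at 0.050, 2.29 and 0.69 CPM in luminal cells, which in 2 of the 3 is below its 9-week wild-type basal level. Its log2 fold change over basal cells was 3.65 (SE 1.34).

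Lpo at 4 weeks was at 1.39, 2.41 and 0.22 CPM in luminal cells and at 0 counts in the 3 basal libraries, so its luminal level was at least 25.8-fold higher against a floor of 3 counts over the basal group. S100a8 was at 1.88, 1.51 and 1.48 CPM in luminal and 0.21 to 0.34 CPM in basal cells (log2 fold change 2.60, SE 0.82). In this comparison edgeR called 23.5% of genes and 4 of the 7 members tested, Gp2, Ccl28, Lpo and S100a8. Only Gp2 of these 4 would have passed the filter on low counts without the luminal libraries, in which all are high, so the count and the calls of the other 3 are not read as a result. Lcn2 was at 95.3, 65.5 and 71.5 CPM in luminal and 36.4, 12.5 and 18.2 CPM in basal cells (log2 fold change 1.78, SE 0.63, edgeR adjusted p = 0.0604), and was called when the animal was kept as a block (edgeR adjusted p = 0.000655) or without any 1 of the 3 knockout luminal libraries.

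**Figure D2:**
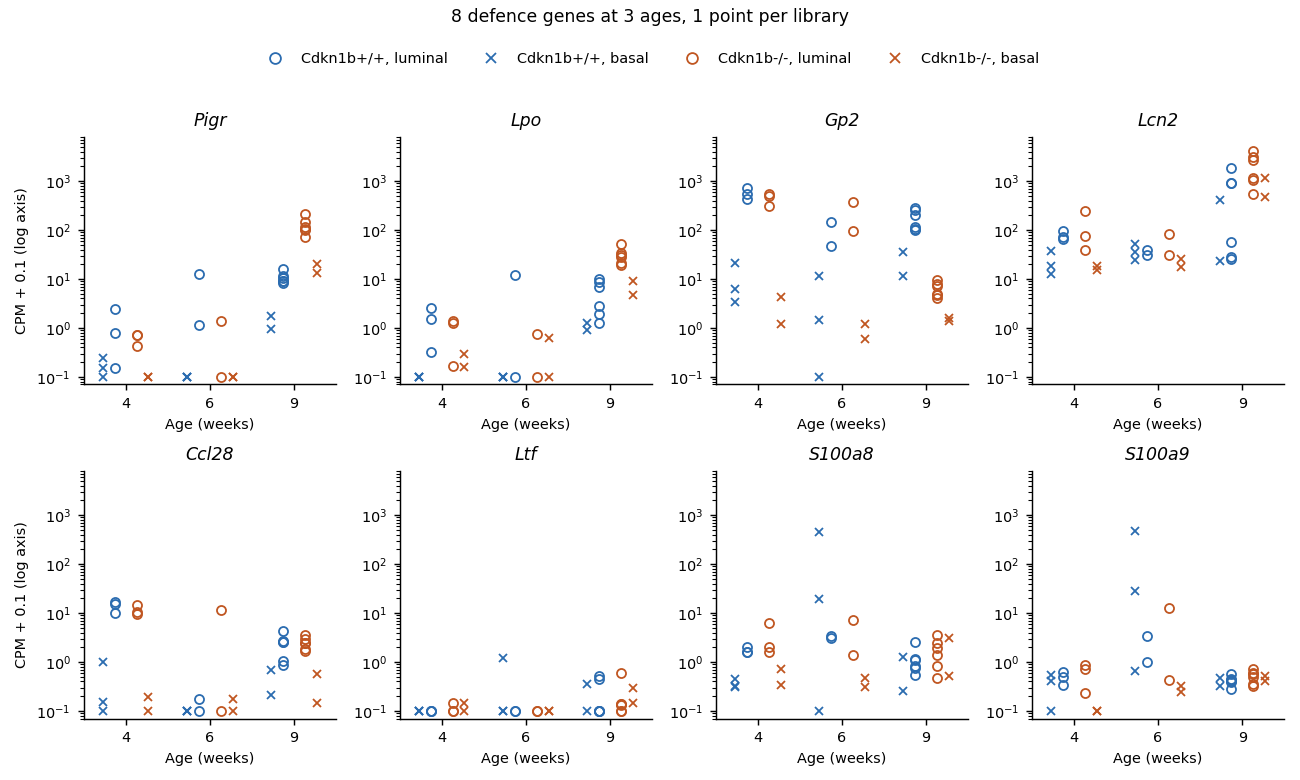
CPM plus 0.1 (log axis) of the 8 genes at 4, 6 and 9 weeks, with luminal libraries as circles (all luminal gates together at 9 weeks), basal libraries as crosses, Cdkn1b+/+ in blue and Cdkn1b-/- in orange. Gp2 is at 315 CPM or more in all luminal libraries of 4 weeks in both genotypes, and the genotypes part in Gp2 and Pigr at 9 weeks.

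In younger luminal cells no member was called between the genotypes by edgeR. At 4 weeks knockout luminal cells held Gp2 at 315, 533 and 499 CPM, a log2 fold change of -0.17 against wild type with a 95% interval from -1.39 to 1.05, and Pigr at 0.33, 0.63 and 0.61 CPM, a log2 fold change of -0.71 (interval -3.20 to 1.78). The interval for Gp2 does not reach the log2 fold change of -4.44 fitted in Cd49b- PNA- cells of 9 weeks, a comparison of separately normalized experiments that were not tested against each other. In luminal cells of 4 weeks edgeR called 0% of 12082 genes, with 435 at an unadjusted p under 0.05 and 0 by DESeq2. In basal cells of that age it also called 0%, with 310 at an unadjusted p under 0.05 and 1 by DESeq2.

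At 6 weeks each luminal group had only 2 libraries, which differed widely. Gp2 was at 147 and 46.4 CPM in the libraries labelled wild type and at 377 and 94.2 CPM in those labelled knockout, with a log2 fold change of 1.26 (SE 1.55). Pigr was at 12.8 and 1.07 CPM in wild type and 1.28 and 0 CPM in knockout, and Lpo at 11.8 and 0 against 0.64 and 0 CPM, so both were high in the same wild-type library. Ccl28 was at 11.6 CPM in 1 knockout library and at most 1 count in the other 3. With edgeR none of the 5 members tested was called between genotypes in luminal or basal cells, and DESeq2 called S100a8 and S100a9 in basal cells. There edgeR called 0% of 11921 genes in luminal cells (1961 at an unadjusted p under 0.05, 1331 by DESeq2) and 0% in basal cells (1072 at an unadjusted p under 0.05, 321 by DESeq2).

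Pigr and Gp2 were also compared between lineages at 6 weeks. Pigr was at 0 counts in all 3 wild-type basal libraries, and its luminal level was at least 85.4-fold higher against 3 counts over that group, but Pigr passed the filter on low counts only through luminal libraries. Gp2 was at 1.36, 0 and 11.6 CPM in basal cells and had a log2 fold change of 4.40 (SE 1.5, edgeR adjusted p = 0.179), which was called with the animal as a block (log2 fold change 7.63, edgeR adjusted p = 0.0113). In this comparison edgeR called 2.43% of genes and none of the 5 members tested, and DESeq2 called Gp2, S100a8 and S100a9 (the last 2 lower in luminal cells).

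In wild-type luminal libraries of 6 against 4 weeks, 3.10% of 12572 genes but none of the 7 members tested were called by edgeR. Gp2 had a log2 fold change of -2.54 (SE 1.18, edgeR adjusted p = 0.229), Lcn2 of -1.17 (SE 0.69, edgeR adjusted p = 0.357) and Ccl28 of -8.13 (SE 2.39, edgeR adjusted p = 0.0711). The Ccl28 value rests on 1 count in the 6-week libraries, and it passed the threshold under DESeq2 (adjusted p = 0.00261) and in edgeR without the wild-type basal replicate 3 or either luminal library labelled knockout of 6 weeks (adjusted p = 0.0165 to 0.0425). S100a8 had a log2 fold change of 0.96 (SE 1.52) and S100a9 of 2.35 (SE 1.67). In the same libraries the neutrophil list was at 23.8 and 76.6 CPM at 6 weeks and at 1.00 to 2.59 CPM at 4 weeks, with Mpo at 12.2 and 32.2 CPM against 0, and its part in the levels of S100a8 and S100a9 was not tested. A difference of the genotype effect between 6 and 4 weeks was called by edgeR in none of the 7, where 1.21% of genes were called.

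S100a8 and S100a9 had their highest levels in a basal library. In the wild-type basal replicate 3 of 6 weeks they were at 447 and 481 CPM, in replicate 2 at 19.2 and 27.7 CPM, and in replicate 1 at 0 and 0.56 CPM, whereas both knockout basal libraries held under 0.4 CPM of either. The antibody panel of the sort included Cd45, a pan-leukocyte marker. In replicate 3 the neutrophil list summed to 2442 CPM with 9 of its 13 genes above 0, led by Elane (1012 CPM), Mpo (745 CPM) and Prtn3 (568 CPM), granule proteases and peroxidase of immature granulocytes. Cxcr2, Fpr1, Mmp8 and Retnlg, markers of mature neutrophils, were at 0 counts there. Replicate 3 also held the macrophage list at 294 CPM and the T and NK cell list at 109 CPM. It had the fewest counts on genes of all libraries (7985619) and the most reads outside genes (77.0%). Between genotypes in basal cells the log2 fold change was -9.17 for S100a8 (SE 3.02, edgeR adjusted p = 0.467) and -9.95 for S100a9 (SE 3.06, edgeR adjusted p = 0.412). Without that library these became -5.22 and -6.43. DESeq2 called both with it (adjusted p = 0.000387 and 2.29e-05). Luminal cells labelled wild type had less S100a8 than basal ones (log2 fold change -5.70, edgeR adjusted p = 0.286). The fold change turned to 1.04 with the animal as a block, a fit without replicate 3, whose animal has no luminal library. With any 1 library left out of the unpaired fit it stayed negative (-6.29 to -1.77).

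**Figure D3:**
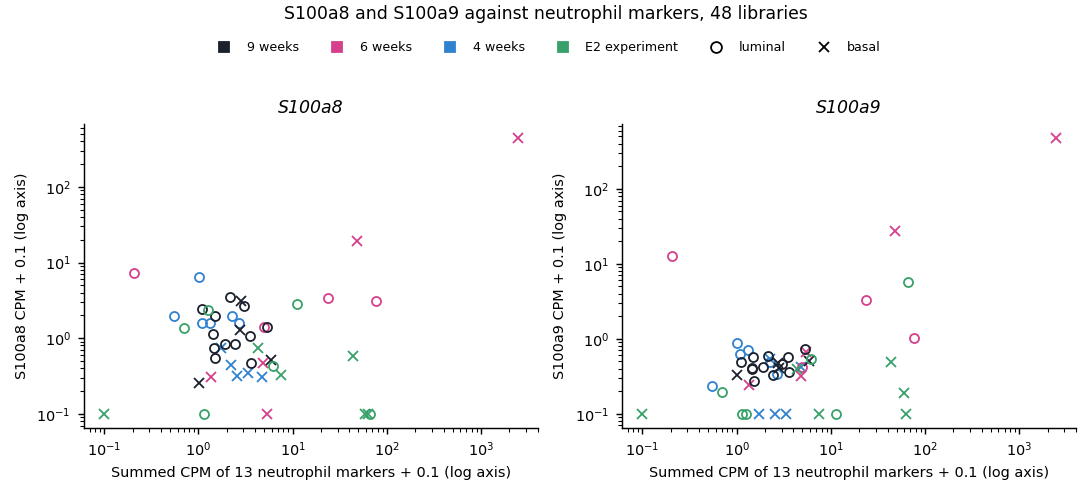
CPM of S100a8 (left) and S100a9 (right) against the summed CPM of 13 neutrophil markers, both plus 0.1 on log axes, in 48 libraries coloured by experiment, with basal libraries as crosses and luminal ones as circles. A single basal library of 6 weeks lies at the top right with 447 and 481 CPM, and most others hold under 10 CPM of either gene.

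Outside the 6-week libraries S100a8 reached at most 6.24 CPM and S100a9 5.71 CPM. The luminal library labelled knockout with macrophage markers had 7.21 and 12.5 CPM of them with a neutrophil list of only 0.11 CPM, of which 1 gene had a count. That library had 9241 genes with a count and 76.2% of reads outside genes, and the source of the pair in it was not tested.

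Estradiol was compared with control in rats of both strains. In luminal cells of ACI rats Pigr was at 23.2 and 1.25 CPM without and at 2.12 and 110 CPM with E2, and Lpo at 0 and 2.5 CPM without and 0 and 87.5 CPM with E2. Both high values belonged to E2-treated ACI animal 2. The BN luminal libraries had Pigr at 0 CPM without and 12.7 CPM with E2, and Lpo at 0 and 17.1 CPM. The groups overlapped in ACI, and neither gene was called (log2 fold change 3.32, SE 2.5, for Pigr and 6.31, SE 3.28, for Lpo, edgeR adjusted p = 0.999 for both).

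E2-treated ACI animal 2 carried both in its basal cells too, with Pigr at 8.78 and Lpo at 7.33 CPM, where the other ACI basal libraries had at most 0.13 CPM of Pigr and 0 of Lpo. The basal library of E2-treated BN rats held Lpo at 9.39 CPM, against 0 in the BN control. The milk list stood at 93789 CPM in the luminal library of that ACI animal and at 60350 CPM in that of E2-treated BN rats, against 2419 to 11041 CPM in the other 4 luminal libraries, so it moved with Pigr and Lpo, and its part was not tested. With edgeR no member was called for E2. In luminal cells edgeR called 0% of 12670 genes (437 at an unadjusted p under 0.05, 131 by DESeq2), and in basal cells 0% of 12265 (178 at an unadjusted p under 0.05, 101 by DESeq2). Leaving out both libraries of E2-treated ACI animal 1 did not bring a call.

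**Figure D4:**
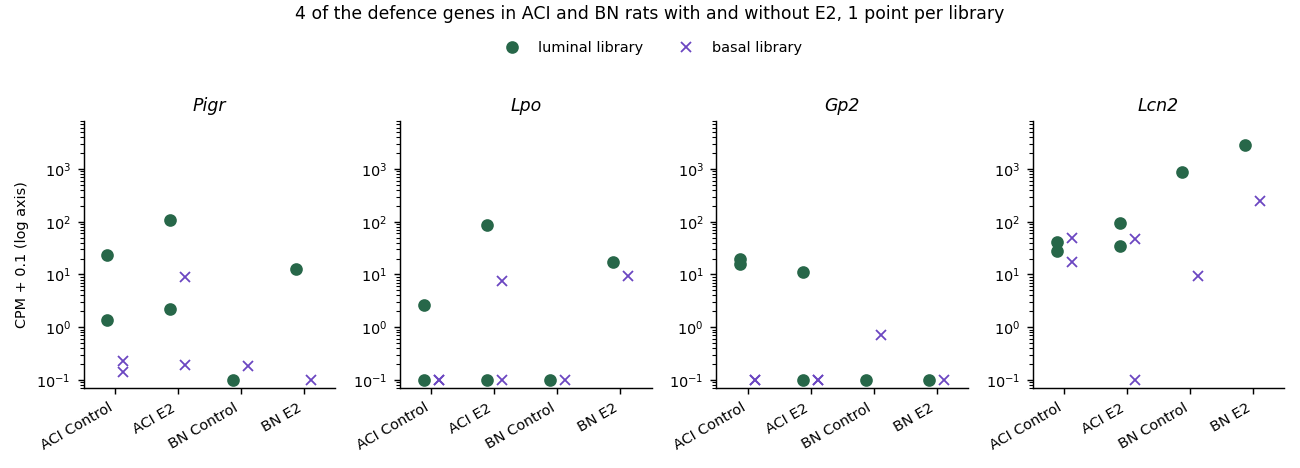
CPM plus 0.1 (log axis) of Pigr, Lpo, Gp2 and Lcn2 in the 12 libraries of the E2 experiment, by strain and treatment (x axis), with luminal libraries as circles and basal libraries as crosses. Pigr and Lpo are highest in 1 E2-treated ACI animal, and Lcn2 is higher in both BN luminal libraries than in the 4 ACI ones.

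The strains were compared within each cell type. Lcn2 was at 858 (control) and 2833 CPM (E2) in BN luminal cells and at 41.2, 27.2, 95 and 34.9 CPM in the 4 ACI luminal libraries, a log2 fold change of ACI against BN of -5.61 (SE 0.60, unadjusted p = 4.17e-05 by edgeR). The adjusted p was 0.528 with edgeR, 0.0363 with edgeR and no filter on low counts, and 2.64e-13 with DESeq2. BN has 1 luminal library for each treatment, and each is a pool of animals.

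Gp2 was at 0 counts in both BN luminal libraries and at 15.5, 19.7, 0 and 11 CPM in the ACI ones, of which the 0 belongs to E2-treated animal 1. The ACI mean was at least 194-fold higher against 3 counts over the BN libraries, with an edgeR adjusted p of 0.985 and a DESeq2 adjusted p of 0.0182. In luminal cells edgeR called 0% of genes between the strains (511 at an unadjusted p under 0.05, 403 by DESeq2), and in basal cells 0% (91 at an unadjusted p under 0.05, 20 by DESeq2), with no member called by edgeR. Between luminal and basal cells of all 12 libraries, 1.66% of 13335 genes and none of the 7 members tested were called by edgeR. Pigr had a log2 fold change of 4.89 there (SE 1.79, edgeR adjusted p = 0.210, DESeq2 0.00992).

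**Figure D5:**
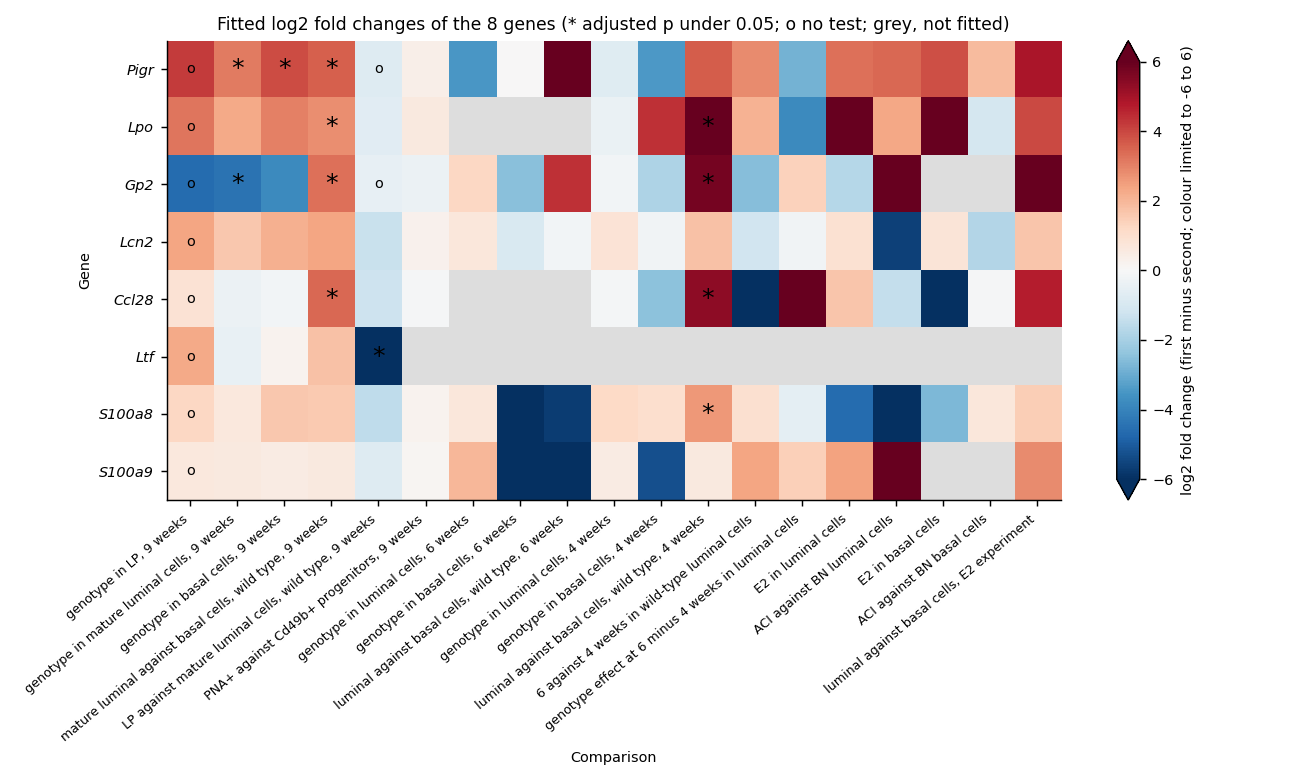
Fitted log2 fold changes (colour, limited to -6 to 6) of the 8 genes (rows) in 19 comparisons (columns), each as first group minus second. Stars mark an adjusted p under 0.05 by edgeR, circles values given without a test, and grey genes that did not pass the filter on low counts. The stars of Pigr and Gp2 lie in the 9-week genotype and lineage columns, and those of Lpo, Ccl28, S100a8 and Ltf in columns that compare cell types. Many dark cells without a star have libraries at 0 counts in 1 of the groups, and Lcn2 between the strains does not.

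Other defence genes were read from a list of 35 further secretory defence genes, of which 33 had a row and 27 to 32 were tested in a comparison. In wild-type luminal against basal cells 14 were higher and none lower at 9 weeks, 16 higher and 1 lower at 4 weeks, and 2 higher at 6 weeks, and 8 were higher in the E2 experiment. Over all genes 20.9%, 23.5%, 2.43% and 1.66% were called there, in the same order. Whether the listed genes pass the filter on low counts without the group where they are high was not checked. Their counts are therefore not read as a result. At 9 weeks their median log2 fold change was 2.13 and that of all genes 0.00. The leading ones were complement C3 (4.09, SE 1.05, 112 against 7.21 CPM, edgeR adjusted p = 0.0136), the mucins Muc15 (3.51) and Muc1 (3.39), complement factor Cfb (3.38) and Cxcl17 (3.35). The exception at 4 weeks was Tff3, a trefoil peptide, at 0.017 against 0.91 CPM (edgeR adjusted p = 0.00564). In LP against Cd49b- PNA- cells, where 11% of all genes were called, Ccl25 (-3.24) and Duoxa1 (-0.90), which serves a hydrogen peroxide-making oxidase, were lower.

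No gene of that list was called between genotypes outside LP, with E2 or between strains. Over all genes edgeR called 0% with E2, between strains and between genotypes at 4 and 6 weeks. At 9 weeks it called 0.133% in Cd49b- PNA- and 0.0546% in basal cells. With so few calls, their absence from a list of this size is not read as a result about the list. Its median log2 fold change with the genotype was -0.03 in Cd49b- PNA- cells and 0.44 in basal cells, against 0.03 and 0.00 over all genes. In LP the median was 0.49 against 0.03, given as a description. Xdh, xanthine dehydrogenase, fell from 341 to 24.1 CPM between 4 and 6 weeks in wild-type luminal cells (log2 fold change -3.72, edgeR adjusted p = 0.0291). Of the set and the list, Pigr and Gp2 alone were called between genotypes in Cd49b- PNA- cells, where 17 genes in all were called.

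A second list held 19 receptors and transcription factors that act on such genes, of which 17 or 18 were tested. In wild-type Cd49b- PNA- against basal cells of 9 weeks 6 were higher and 5 lower, where 20.9% of all genes were called. The Ets factors Elf5 (log2 fold change 3.64), Ehf (3.51) and Elf3 (3.32) led the higher ones, and the cytokine receptors Il6r (-2.56), Osmr (-2.41) and Tnfrsf1a (-1.87) the lower. The counts were 2 higher and 4 lower in LP against Cd49b- PNA- cells, 4 and 2 in luminal against basal cells at 4 weeks, and 1 and 1 at 6 weeks and in the E2 experiment. Over all genes 11%, 23.5%, 2.43% and 1.66% were called there, in the same order. The filter was not checked for this list either, so its counts are not read as a result. Ehf was higher in luminal cells at 4 weeks (5.86), at 6 weeks (6.66) and in the E2 experiment (4.29). Il1r1 had a genotype effect that differed between 6 and 4 weeks (7.38, SE 1.69, edgeR adjusted p = 0.0401). No gene of this list was called between genotypes outside LP, where edgeR called at most 0.133% of all genes.

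Among 8899 genes with a mean log2 CPM above 2, the genes most like each member were ranked by Spearman's rho over all 48 libraries, which share batches, depth and cell types. Pigr was most like Srebf1 (0.85), C3 (0.83) and the casein gene Csn1s2a (0.82), and Lpo most like Csn1s2a (0.83), Thrsp (0.77) and Chmp6 (0.76). Gp2 was most like the prolactin receptor gene Prlr (0.88), Ctse (0.87) and Tmed4 (0.86). Lcn2 was most like Tf (0.77), Slc34a2 (0.76) and Cldn4 (0.75), Ccl28 most like Arpc1b (0.77), S100a8 most like Sat1 (0.71), S100a9 most like Zmat2 (0.62) and Ltf most like Igsf8 (0.57). Among the members Pigr and Lpo had a rho of 0.77 over 48 libraries and 0.97 over the 16 of 9 weeks, and Pigr and Gp2 of 0.23 and -0.60. Prlr itself was at 112 to 145 CPM in wild-type LP and 32.7 to 55.0 CPM in knockout LP, without overlap, as Gp2 was. C3 was at 36.6 to 110 CPM in wild-type LP and 348 to 1482 CPM in knockout LP, the direction of Pigr.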

How the data were processed

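Sorted rat mammary cells were profiled by low-input SMARTer RNA-seq. The authors aligned single-end reads to rn6 with STAR 2.5.1b and counted them on refGene genes with htseq-count, and the deposited values are raw counts per gene in 48 libraries. The kit does not keep strand, so a gene and an antisense partner cannot be told apart. Reads that the authors' counting left outside genes, 47.1% to 77.0% of all, entered neither library sizes nor tests. Deposited progesterone receptor peaks were not analysed here. Depth ran from 7985619 to 33859550 counts per library, and intervals and floors of 3 counts cover counting error only. No 2 libraries of a group agreed within sampling noise.

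The members and lists were chosen with earlier results of these data known. Counts were filtered with filterByExpr, scaled by TMM and tested with edgeR 4.0.16 by its quasi-likelihood test in R 4.3.3, with Benjamini-Hochberg adjustment over all genes tested and a threshold of 0.05. The SE of a fold change is its size divided by the square root of the F statistic. The 9-week libraries were fitted together with 6 groups (LP taking both gates), each younger age by itself, and the E2 experiment within cell type by strain and treatment. Both young ages were fitted together for comparisons of age. The test was checked on simulated counts. Alternatives were RLE, 2 other filters, DESeq2 1.42.0, the compared libraries alone, replicate number or animal as a block, summed or separate LP gates, 4 and 6 weeks together, and each library left out. The animals named in the titles give the pairing of basal and luminal libraries at 4 and 6 weeks and in the E2 experiment (correlation of their deviations from the group means -0.01 to 0.76).

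Named genes are the members, Cdkn1b, called genes of both defence lists (up to 5 per direction and comparison), the 3 genes most like each member, and cell type markers. Promoter sequences come from RefSeq (GRCr8).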

Additional observations from a re-analysis of the deposited data

Results flagged for a closer look

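Of the sets of 4 LP libraries (8 members in each genotype, without Ltf in wild type, which was at 0 throughout), 1 had a library far from the others. Pigr in knockout LP was at 215 CPM in the PNA+ library with replicate number 2, where the next was at 114 CPM, a gap of 0.89 of the range of the group. The threshold for such a gap is passed by chance in about 1 in 20 groups of independent values, and these 4 libraries are 2 gates of 2 replicate numbers. The same library also had the highest Lpo level of the LP libraries, 51.4 CPM.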

How the results depend on the processing

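The counts of members called were within 1.5 times the reported ones in 278 of 311 alternatives. Most comparisons had 0 members called, and a 0 that stayed at 0 is included in the 278. Fold changes were followed for members called in any fit and, for the genotype in LP, for all members, and 721 of 797 were unchanged. Outside that contrast this means the same direction and side of the threshold. For the genotype in LP, which has no test, it means the same direction and a shift under the SD between libraries of a genotype. With the compared libraries alone the count went from 2 to 0 for the genotype in Cd49b- PNA- cells, from 1 to 0 in basal cells of 9 weeks and for LP against Cd49b- PNA- cells, from 4 to 2 for Cd49b- PNA- against basal cells, and from 0 to 2 for 6 against 4 weeks, with fewer samples in each fit. DESeq2 called 3 members in place of 1 for the genotype in basal cells of 9 weeks, 2 in place of 0 in basal cells of 6 weeks, 3 in place of 0 for luminal against basal cells of 6 weeks, 1 in place of 0 for 6 against 4 weeks, and 2 in place of 0 both for the strains in luminal cells and for luminal against basal cells of the E2 experiment. At least 10 counts in every library left 1 call in place of 4 for luminal against basal cells at 4 weeks and 0 in place of 1 for LP against Cd49b- PNA- cells, with fewer genes tested, and no filter gave 1 in place of 0 for the strains in luminal cells. Leaving out 1 library gave 0 to 2 calls for the genotype in Cd49b- PNA- cells, 0 to 1 in basal cells of 9 weeks, 2 to 4 for Cd49b- PNA- against basal cells, and 0 to 1 both for LP against Cd49b- PNA- cells and for 6 against 4 weeks. Lcn2 followed single libraries: without Cd49b- PNA- replicate 2 of the wild type its log2 fold change reversed to -1.86 against basal cells and to 2.89 for LP against Cd49b- PNA- cells, where leaving out other libraries gave up to 5.68 and down to -2.19. In the paired fits by animal (the replicate block of the young ages and the E2 experiment) 1 member in place of 0 was called for luminal against basal cells at 6 weeks, S100a8 there reversed to 1.04, and no other count moved by over 1.5 times, with Lcn2 in place of Lpo among the 4 called at 4 weeks. The 9-week libraries share only a number, and within a genotype the same number deviated together (correlation 0.39 to 0.83). That replicate block gave 4 calls in place of 1 for LP against Cd49b- PNA- cells and 6 in place of 4 for Cd49b- PNA- against basal cells. Between genotypes the correlation was -0.12 to -0.40, and the crossed pairing, added after the data were seen, gave 2 calls in place of 1 in basal cells. Depth limits Ltf, which had under 3 counts in 42 of 48 libraries. Over all genes, the 436 called for the genotype in LP became 5 with the gates of a number summed, 18 and 5 with the PNA+ and Cd49b+ gates apart, 671 with the replicate block, 1284 with the crossed one and 1096 with DESeq2, and the 17 and 7 called in Cd49b- PNA- and basal cells became 158 and 170 with DESeq2, 42 and 14 with the replicate block and 132 and 77 with the crossed one.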
